A study of Homo sapiens with 18 samples.

Results

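The response difference is a difference of differences. It sets the change that shPPP2R2A-1, a short hairpin RNA against PPP2R2A, gave in A549 cells beside the change that the same hairpin gave in H1299 cells, and asks which genes depended on the line. It was taken from 12 of the 18 RNA-seq libraries of a study of PPP2R2A knockdown in non-small cell lung cancer cells. The groups were A549 shPPP2R2A-1, A549 shcon, H1299 shPPP2R2A-1 and H1299 shcon, with 3 libraries each, where shcon is the control hairpin. A549 is an established human line from a lung adenocarcinoma, and H1299 is an established human line from a lymph node metastasis of a large cell lung carcinoma. Both were grown in the same DMEM medium with fetal bovine serum, and no drug treatment is given in the labels. The libraries of a second hairpin, shPPP2R2A-2, were left out of the comparison, so an effect of the knockdown and an effect particular to this 1 hairpin cannot be told apart here. The labels do not say whether the repeats of a group were separate cultures, and if they were not, the p-values measure technical spread only.

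PPP2R2A is a regulatory subunit (B55 alpha) of protein phosphatase 2A, PP2A, a serine/threonine phosphatase built from a scaffold, a catalytic and a regulatory subunit. The B55 subunits choose substrates, many of them phosphorylated by cyclin-dependent kinases, and the phosphatase carrying them is held inactive during mitosis through the kinase MASTL and released at mitotic exit. Genes of mitosis are transcribed late in the cell cycle, and many of their promoters hold a CHR element, which is read by the MuvB core complex, and CCAAT boxes, which are read by NF-Y. Genes for detoxification and glutathione synthesis are driven by the factor NRF2 through antioxidant response elements (AREs). A549 cells are known to carry a loss-of-function change in KEAP1, the inhibitor of NRF2, so their basal expression of these genes is high.

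Windows upstream of the transcription start of 7 genes are shown because their lists, mitosis and NRF2 targets, had every measured difference between the lines below 0. The leukocyte list, with 3 genes tested, also had every difference below 0 and is not shown here. For mitosis, genes with both motifs within 150 bases of the start were considered. The 4 of them with the smallest unadjusted p of the difference are printed. For each list, windows on 1 chromosome were left out of the choice. Each sequence is from RefSeq on GRCh38.p14, written 5′ to 3′ on the strand of the gene. Capitals mark matches of the CHR (TTTGAA) or the CCAAT box (CCAAT), on either strand, and where 2 matches overlap they form 1 run of capitals.
ESPL1 (chr12:53268149-53268298, plus strand): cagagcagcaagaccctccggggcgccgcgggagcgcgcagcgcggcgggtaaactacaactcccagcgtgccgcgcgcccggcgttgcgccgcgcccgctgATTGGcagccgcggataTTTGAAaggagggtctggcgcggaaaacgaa
PLK1 (chr16:23678739-23678888, plus strand): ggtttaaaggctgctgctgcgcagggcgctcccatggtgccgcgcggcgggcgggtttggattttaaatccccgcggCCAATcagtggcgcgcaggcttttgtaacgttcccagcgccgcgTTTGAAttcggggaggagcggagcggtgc
INCENP (chr11:62123861-62124010, plus strand): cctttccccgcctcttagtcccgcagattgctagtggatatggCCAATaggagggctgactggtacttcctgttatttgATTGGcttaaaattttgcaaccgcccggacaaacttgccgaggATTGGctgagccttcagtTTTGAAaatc
MKI67 (chr10:128126424-128126573, minus strand): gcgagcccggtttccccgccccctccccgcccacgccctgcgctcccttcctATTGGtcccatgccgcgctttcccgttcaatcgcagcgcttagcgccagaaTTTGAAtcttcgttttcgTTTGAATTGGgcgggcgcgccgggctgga
ESPL1 is separase, which cuts the cohesin ring. PLK1 is a mitotic kinase, INCENP is the scaffold of the chromosomal passenger complex, and MKI67 coats mitotic chromosomes. The NRF2 targets were chosen by the same p among those with a match within 250 bases of the start. For the NRF2 targets, capitals mark a match of TGACNNNGC, the core of the ARE, which in these windows reads on the opposite strand.
PGD (chr1:10398848-10398907, plus strand): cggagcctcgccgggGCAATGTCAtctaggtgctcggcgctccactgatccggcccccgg
GCLM (chr1:93909431-93909479, minus strand): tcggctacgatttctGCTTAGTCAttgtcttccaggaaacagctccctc
GPX2 (chr14:64942823-64942882, minus strand): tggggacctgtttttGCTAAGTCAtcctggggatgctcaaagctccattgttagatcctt
PGD is an enzyme of the pentose phosphate pathway, GCLM is the modifier subunit of the enzyme that starts glutathione synthesis, and GPX2 is a glutathione peroxidase.

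Over the 250 bases before the start, the CHR was found in 20 of 33 mitosis genes that had a window (60.6%), against 12.4% of the 10866 tested genes with a window and 13.3% of all 35116 windows. CCAAT was found in 26 of the 33 (78.8%), against 41.5% of tested genes and 32.0% of all windows. Both motifs were found in 17 of the 33 (51.5%), against 4.86% of tested genes and 4.69% of all windows. In the DNA replication and E2F list the CHR was found in 1 of 39 genes and CCAAT in 24 of 39 (61.5%). Of the NRF2 targets with a window, 57.9% held CCAAT. TGACNNNGC was found in 6 of 19 NRF2 targets (31.6%), against 15.8% of tested genes and 10.9% of all windows. The share was 18.2% in the mitosis genes and 23.1% in the DNA replication and E2F genes. Such matches are a description of letters and not of factor binding.

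The hairpin lowered its target to a similar level in both lines. PPP2R2A had 9.26, 11.2 and 7.38 CPM (counts scaled to the size of the library) in A549 shPPP2R2A-1 cells, against 84.0, 48.9 and 86.0 CPM in A549 shcon cells. It had 7.29, 9.77 and 6.47 CPM in H1299 shPPP2R2A-1 cells, against 104, 73.3 and 84.6 CPM in H1299 shcon cells. The means under shPPP2R2A-1 were 12.7% of shcon in A549 and 8.98% of shcon in H1299, and in neither line did the groups overlap. On the log2 scale the change was -2.98 in A549 (SE 0.26, adjusted p = 6.26e-05, edgeR) and -3.48 in H1299 (SE 0.27, adjusted p = 5.35e-05, edgeR). The difference, A549 minus H1299, was 0.50 (SE 0.35, adjusted p = 0.515, edgeR).

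The 12 libraries held 40912473 to 69298905 counts each. Library composition split along 1 axis that the groups did not explain: on the first axis of the deviations from the group means, with 29.4% of their variance, A549 shPPP2R2A-1 replicate 3, A549 shcon replicate 2 and H1299 shcon replicate 1 stood apart, and their 100 most abundant genes took 26.8%, 24.65% and 22.8% of counts. That share alone did not mark them, since it was 23.85% in A549 shPPP2R2A-1 replicate 2. Results are given with all 12 libraries and, where it matters, without the 3 that stood apart. CDKN2A, which is deleted in A549, had 0 counts in all 6 A549 libraries and 35.4 to 50.5 CPM, here without TMM scaling as for all markers, in the 6 H1299 libraries. The epithelial markers KRT8 and KRT18 were present in both lines, while CDH1, KRT19 and EPCAM had at most 2, 8 and 15 counts in any H1299 library. Markers of other cells were low: the summed leukocyte markers reached at most 15.3 CPM in A549, nearly all of it CD14, and at most 0.24 in H1299.

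Of 18125 genes tested, 140 had a response difference past an adjusted p of 0.05, which is 0.772% of the genes tested. Of these, 108 were higher in A549 minus H1299 (0.596%) and 32 were lower (0.177%). At an unadjusted p under 0.05 there were 2668 genes for the difference, 5333 for the A549 change and 3388 for the H1299 change. In A549 cells shPPP2R2A-1 raised 1339 genes (7.39%) and lowered 1141 (6.3%), in all 2480 or 13.7%. In H1299 cells it raised 223 genes (1.23%) and lowered 274 (1.51%), in all 497 or 2.74%. The counts of each line share 1 estimate of spread and do not by themselves show that the lines differ, which is what the difference tests.

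In 118 of the 140 genes the A549 change alone was called, with 99 above 0 in the difference and 19 below 0. For the 99, the median log2 change was 2.36 in A549 and -0.30 in H1299, and for the 19 it was -1.77 in A549 and 0.56 in H1299. In 13 genes the H1299 change alone was called, with 5 above 0 and 8 below 0 in the difference. In 9 genes both changes were called and went in opposite directions, and 0 genes were called in the same direction in both. These counts moved with the analysis: the genes called in A549 alone numbered 548 with DESeq2, 736 with limma-voom, 16 without A549 shcon replicate 3 and 212 without A549 shcon replicate 1, and those called in opposite directions numbered 43 with DESeq2, 124 with limma-voom and 0 without H1299 shPPP2R2A-1 replicate 1 or H1299 shcon replicate 2. Genes called in the same direction in both numbered 18 with DESeq2 and 44 with limma-voom. A missing call in H1299 is not an absent change. The 3 H1299 shPPP2R2A-1 libraries lay below the 3 H1299 shcon libraries in 47 of the 108 higher genes, and above them in 25 of the 32 lower genes. The choice of the genes favors such an order, since their difference was taken from the same libraries. Its share over all genes tested was not counted, so these 2 counts describe the chosen genes only. Of the 140 genes, 114 are annotated as protein coding.

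**Figure D1:**
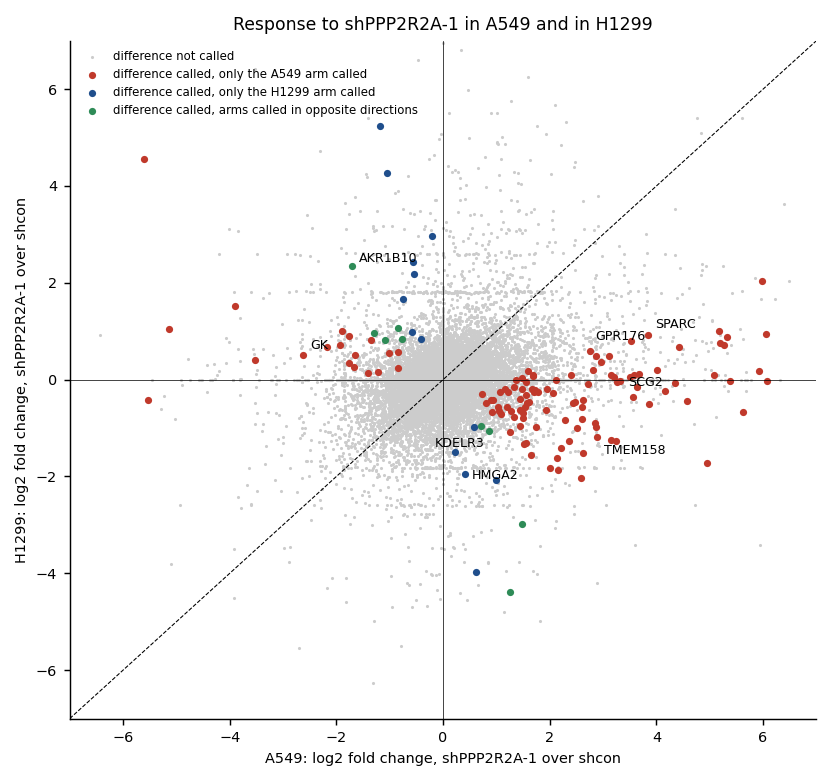
Each point is a gene, with the log2 fold change of shPPP2R2A-1 over shcon in A549 on the x axis and in H1299 on the y axis, and the dashed line marks equal change. The 118 red genes lie mostly along the horizontal axis, the 13 blue genes mostly along the vertical axis and the 9 green genes in the upper left and lower right quadrants; 9 genes, 0 of them called, lie outside the axis limits of 7.

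The number of genes called depended on single libraries. Without A549 shPPP2R2A-1 replicate 2 or 3 the counts were 71 higher and 12 lower, and 47 higher and 10 lower. Without A549 shcon replicate 1 they were 168 and 74, and without A549 shcon replicate 3 they were 17 and 3. Without H1299 shPPP2R2A-1 replicates 1, 2 and 3 in turn they were 23 and 5, 52 and 17, and 24 and 9. Without H1299 shcon replicates 1, 2 and 3 in turn they were 81 and 14, 29 and 5, and 55 and 14. Without the 3 libraries that stood apart the counts were 229 higher and 143 lower, and 117 of the 140 genes were again called. Same-numbered shPPP2R2A-1 and shcon libraries deviated together in H1299, and a fit that blocked that line by repeat called 77 higher and 19 lower, of which 81 were among the 140.

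**Figure D2:**
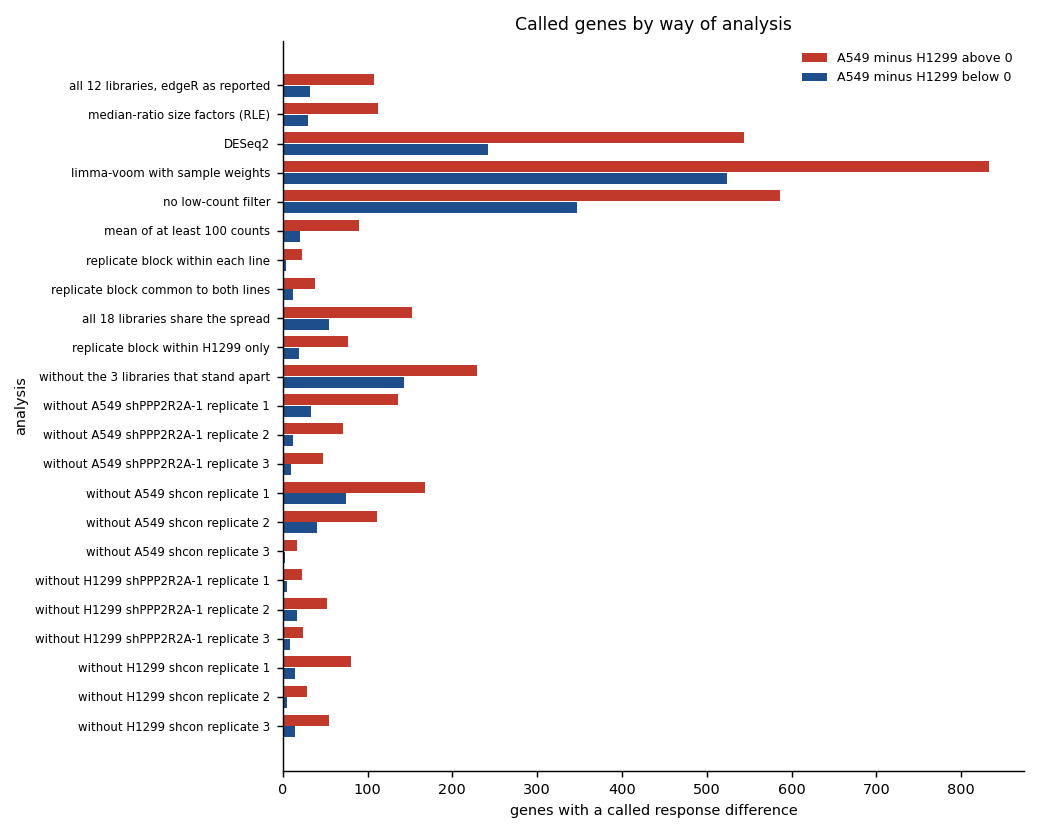
Bars give the number of genes with a called response difference (x axis) under each way of analysis (y axis), red for A549 minus H1299 above 0 and blue for below 0. The top pair is the analysis reported, with 108 and 32 genes, and the pairs below it run between 17 and 3 genes without A549 shcon replicate 3 and 833 and 524 with limma-voom and sample weights.

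Of the genes tested, 11926 reached a mean of 50 counts in at least 1 group of each line and could be measured in both. They held 98 of the 140 called genes, 78 higher and 20 lower. Of the other 42, 23 were low in H1299, 15 were low in A549 and 4 were low in both, so for these the difference rests on few counts in at least 1 line. In all, 17 genes were called with all 12 libraries and again in each of the 12 fits without 1 library, and 13 of the 17 could be measured in both lines. These 13 are described first. The other 4, named after their values were seen, were MPP4 (5.75), FGF5 (4.42), DSCR8 (4.41) and MYB (-5.11), with the log2 difference of each.

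Of the 13, 11 were higher in A549 minus H1299. TMEM158, a transmembrane protein known as a gene induced by oncogenic RAS, had 17.1, 26.5 and 21.5 CPM in A549 shPPP2R2A-1 cells, against 5.16, 2.52 and 1.22 CPM in A549 shcon cells. In H1299 it had 26.8, 37.9 and 39.1 CPM with shPPP2R2A-1, against 70.7, 73.2 and 93.1 CPM with shcon. The groups did not overlap in either line and stood in opposite order, and the H1299 change alone was not called (log2 -1.19, SE 0.36, adjusted p = 0.0935, edgeR). The difference was 4.07 (SE 0.53, adjusted p = 0.00661, edgeR), and without the 3 libraries that stood apart its adjusted p was 0.0507.

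SPARC, a matricellular glycoprotein, had 48.1, 41.9 and 81.0 CPM in A549 shPPP2R2A-1 cells, against 3.92, 4.14 and 3.92 CPM in A549 shcon cells. The H1299 levels were 6.29, 5.65 and 4.59 CPM with shPPP2R2A-1, against 2.35, 3.81 and 2.54 CPM with shcon. All shPPP2R2A-1 libraries lay above their shcon libraries in both lines, and the difference of 2.91 was one of size (SE 0.38, adjusted p = 0.00661, edgeR). SCG2, a granin packed in secretory granules, had 9.37, 16.1 and 22.4 CPM in A549 shPPP2R2A-1 cells, against 1.61, 1.42 and 1.95 CPM in A549 shcon cells. Its H1299 groups overlapped, at 6.27, 8.29 and 6.02 CPM with shPPP2R2A-1, against 4.43, 8.65 and 8.24 CPM with shcon. Its difference was 3.31 (SE 0.47, adjusted p = 0.00834, edgeR).

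HBEGF, a membrane-anchored ligand of the EGF family, showed the same pattern of a change in A549 beside overlapping groups in H1299. It had 11.4, 16.9 and 18.4 CPM in A549 shPPP2R2A-1 cells, against 3.11, 3.27 and 2.45 CPM in A549 shcon cells. The H1299 levels were 39.2, 44.4 and 59.2 CPM with shPPP2R2A-1, against 37.2, 39.0 and 56.5 CPM with shcon. The difference was 2.30 (SE 0.34, adjusted p = 0.0117, edgeR). GPR176, an orphan G protein-coupled receptor, had the smallest adjusted p of all genes. It had 23.9, 23.0 and 27.0 CPM in A549 shPPP2R2A-1 cells, against 4.22, 3.23 and 3.51 CPM in A549 shcon cells, and 114, 113 and 106 CPM in H1299 shPPP2R2A-1 cells, against 70.8, 77.1 and 73.4 CPM in H1299 shcon cells. Both lines had higher levels with shPPP2R2A-1 in all 3 libraries, and the difference was 2.16 (SE 0.22, adjusted p = 0.00178, edgeR).

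HMGA2, a chromatin protein of embryonic and tumor cells, was the one of the 13 whose change was called in H1299 alone. It had 174, 196 and 160 CPM in H1299 shPPP2R2A-1 cells, against 666, 713 and 655 CPM in H1299 shcon cells, a log2 change of -1.94 (SE 0.24, adjusted p = 0.00125, edgeR). In A549 it had 117, 95.3 and 167 CPM with shPPP2R2A-1, against 123, 66.1 and 97.5 CPM with shcon, and the groups overlapped. The difference was 2.35 (SE 0.33, adjusted p = 0.00768, edgeR). KDELR3, a receptor that returns proteins to the endoplasmic reticulum, was called in opposite directions. It had 30.4, 32.9 and 43.1 CPM in A549 shPPP2R2A-1 cells, against 16.2, 23.9 and 18.4 CPM in A549 shcon cells, and 8.22, 8.01 and 6.89 CPM in H1299 shPPP2R2A-1 cells, against 18.4, 14.9 and 14.96 CPM in H1299 shcon cells. Its difference was 1.92 (SE 0.29, adjusted p = 0.0117, edgeR).

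APOL2, an intracellular apolipoprotein L, had 65.8, 65.4 and 66.1 CPM in A549 shPPP2R2A-1 cells, against 27.5, 27.7 and 23.7 CPM in A549 shcon cells. In H1299 the groups overlapped at 23.4, 29.2 and 26.6 CPM with shPPP2R2A-1, against 31.5, 27.2 and 29.8 CPM with shcon, and the difference was 1.49 (SE 0.22, adjusted p = 0.0117, edgeR). The remaining 3 genes higher in A549 minus H1299 were noncoding. RP11-61A14.1, an antisense gene, had a difference of 3.85 (SE 0.53, adjusted p = 0.00768, edgeR) at 1.33 to 1.55 CPM in A549 shPPP2R2A-1 cells and 0.15 to 0.215 CPM in A549 shcon cells. RP11-166D19.1, a gene that overlaps another on its own strand, had 15.2 to 16.8 CPM in A549 shPPP2R2A-1 cells and 3.46 to 4.71 CPM in A549 shcon cells and a difference of 2.15 (SE 0.27, adjusted p = 0.00661, edgeR). RPL13AP20, a pseudogene of a ribosomal protein, had 5.99 to 9.13 CPM in A549 shPPP2R2A-1 cells and 2.12 to 2.87 CPM in A549 shcon cells and a difference of 2.2 (SE 0.31, adjusted p = 0.00768, edgeR). Reads of RP11-61A14.1 can come from the gene on the other strand, since the strand setting of the counting is not given in the sources used here. With any strand setting, reads of RP11-166D19.1 can come from the gene it overlaps and those of RPL13AP20 from its parent gene.

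The 2 stable genes that were lower in A549 minus H1299 are metabolic enzymes. AKR1B10, an aldo-keto reductase and NRF2 target, had 1254, 1057 and 461 CPM in A549 shPPP2R2A-1 cells, against 2485, 3418 and 3205 CPM in A549 shcon cells. In H1299 it was at 4.15, 2.44 and 1.22 CPM with shPPP2R2A-1, against 0.306, 0.683 and 0.517 CPM with shcon. The groups did not overlap in either line and both changes were called, downward in A549 and upward from a far lower level in H1299. The difference was -4.06 (SE 0.62, adjusted p = 0.0117, edgeR), with an adjusted p of 0.0582 without the 3 libraries that stood apart, and reads shared with other aldo-keto reductase genes cannot be told apart here. GK, glycerol kinase, had 0.928, 1.72 and 0.96 CPM in A549 shPPP2R2A-1 cells, against 5.57, 7.95 and 8.95 CPM in A549 shcon cells. Its H1299 levels were 20.7, 17.8 and 19.0 CPM with shPPP2R2A-1, against 12.9, 12.7 and 14.6 CPM with shcon, in groups that did not overlap but whose change did not pass the test (log2 0.51, SE 0.25, adjusted p = 0.286, edgeR). Its difference was -3.15 (SE 0.37, adjusted p = 0.00492, edgeR).

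**Figure D3:**
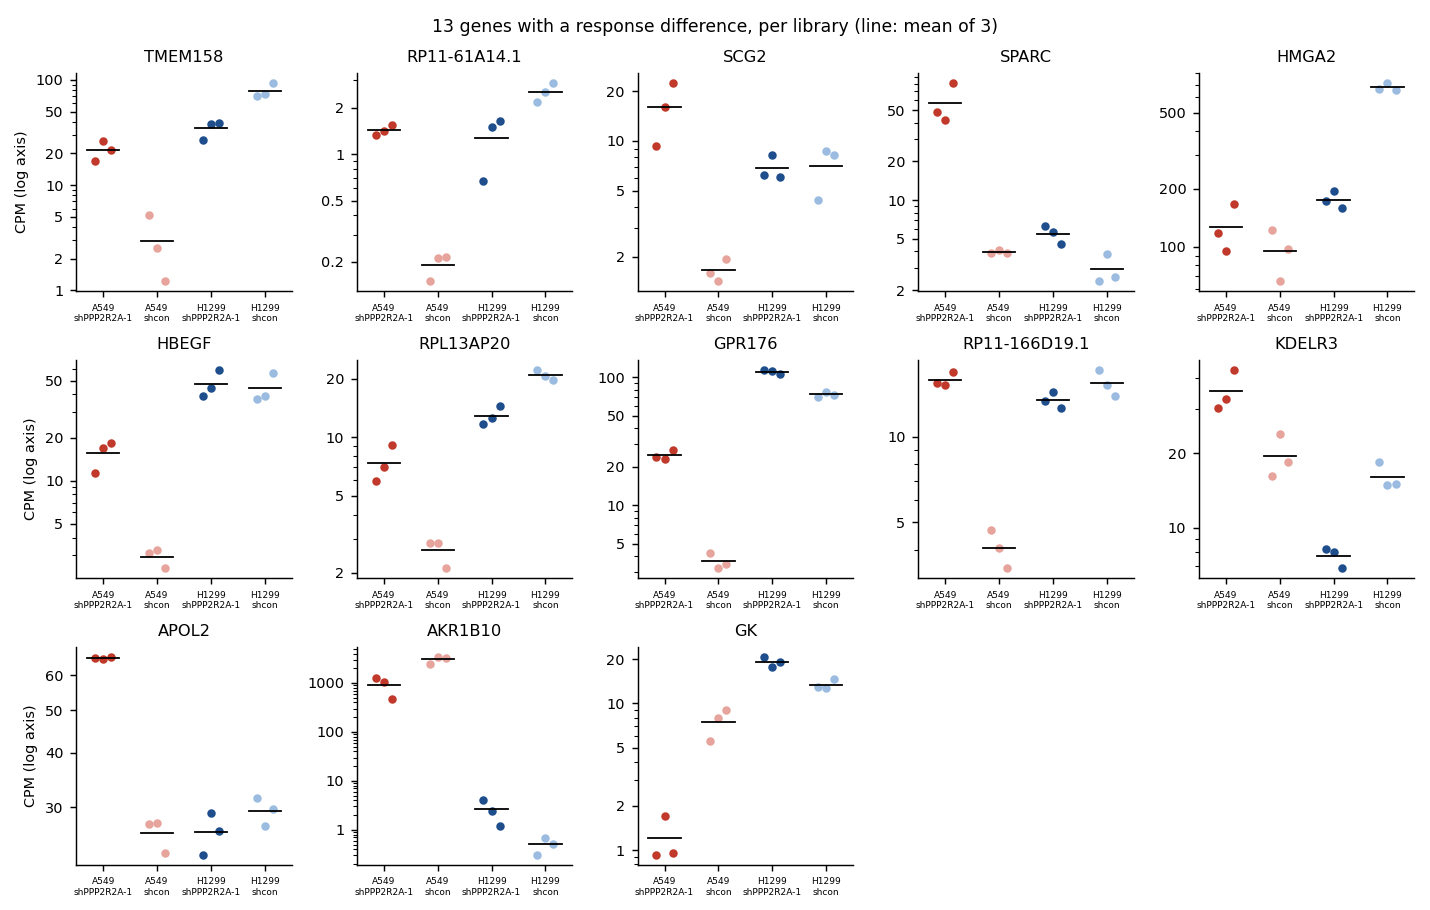
CPM on a log axis in each of the 12 libraries for the 13 genes, with A549 in red and H1299 in blue, shPPP2R2A-1 dark and shcon pale, and a black line at the mean of 3 libraries. The groups of HMGA2 separate in H1299 only, those of TMEM158, RP11-61A14.1, RPL13AP20, KDELR3, AKR1B10 and GK separate in opposite directions in the lines, and those of SPARC and GPR176 separate in both with a wider gap in A549.

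Beside KDELR3 and AKR1B10, 7 genes were called in opposite directions. IL4R, the receptor chain for interleukin-4, had 41.9, 40.3 and 58.4 CPM in A549 shPPP2R2A-1 cells, against 30.9, 25.5 and 29.2 CPM in A549 shcon cells, and 6.90, 7.68 and 10.1 CPM in H1299 shPPP2R2A-1 cells, against 13.1, 14.99 and 19.8 CPM in H1299 shcon cells. The groups did not overlap in either line, and the difference was 1.67 (SE 0.31, adjusted p = 0.0269, edgeR). ATP9B, a putative phospholipid flippase, went the other way, with 19.3, 14.0 and 12.3 CPM in A549 shPPP2R2A-1 cells, against 36.5, 25.6 and 35.4 CPM in A549 shcon cells. In H1299 it had 14.4, 14.9 and 17.0 CPM with shPPP2R2A-1, against 8.70, 8.67 and 8.80 CPM with shcon, and the difference was -1.92 (SE 0.29, adjusted p = 0.0117, edgeR).

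FZD5, a Wnt receptor, and CDS1, an enzyme of phospholipid synthesis, were likewise lower in A549 and higher in H1299 with shPPP2R2A-1, with differences of -1.60 and -1.91. GPR63, a G protein-coupled receptor, had a difference of -2.27 at under 1 CPM in all A549 libraries. P2RX6, an ATP-gated channel subunit, had 4.53 to 7.21 CPM in A549 shPPP2R2A-1 cells and 1.91 to 2.39 CPM in A549 shcon cells, but at most 0.626 CPM in H1299, where the fitted change of -2.99 rests on few counts. TMEM140 had 0 counts in the 3 H1299 shPPP2R2A-1 libraries and at most 0.0627 CPM in H1299 shcon cells, so its H1299 change has no usable size. These calls were less stable than those of the 13, since ATP9B and GPR63 were called in 11 of the 12 fits without 1 library, P2RX6 in 7, IL4R and FZD5 in 6, CDS1 in 4 and TMEM140 in 3. With H1299 blocked by repeat, TMEM140 was not called (adjusted p = 0.0663, edgeR).

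Several other genes among the 140 are named here after their values were seen. VGF, a neurosecretory protein, had 40.7, 34.7 and 256 CPM in A549 shPPP2R2A-1 cells, against 2.27, 1.94 and 0.728 CPM in A549 shcon cells. In H1299 its groups overlapped at 27.4, 12.6 and 13.6 CPM with shPPP2R2A-1, against 27.7, 18.4 and 8.87 CPM with shcon. Replicate 3 stood far above the other A549 shPPP2R2A-1 libraries, and the log2 difference was 6.11 with all libraries and 4.34 without the 3 that stood apart. BCL2A1, an antiapoptotic member of the BCL2 family, had 3.89, 11.1 and 28.0 CPM in A549 shPPP2R2A-1 cells, against 0.578, 0.558 and 0.265 CPM in A549 shcon cells, and at most 0.392 CPM in H1299. The A549 groups did not overlap, although the shPPP2R2A-1 libraries ranged widely. NLRP1, an inflammasome sensor, had 4.86, 3.41 and 10.7 CPM in A549 shPPP2R2A-1 cells, against 0.986, 0.693 and 0.397 CPM in A549 shcon cells, and overlapped in H1299 at 65.2, 75.0 and 64.1 CPM with shPPP2R2A-1, against 53.9, 66.3 and 76.9 CPM with shcon.

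BMP6, a bone morphogenetic protein, had 3.31, 2.03 and 2.19 CPM in A549 shPPP2R2A-1 cells, against 5.01, 13.1 and 9.89 CPM in A549 shcon cells, and 41.6, 25.4 and 25.7 CPM in H1299 shPPP2R2A-1 cells, against 21.5, 12.5 and 12.1 CPM in H1299 shcon cells. Its groups stood in opposite order in the lines and did not overlap. MT2A, a metallothionein, had 348, 289 and 1221 CPM in A549 shPPP2R2A-1 cells, against 128, 118 and 60.4 CPM in A549 shcon cells. In H1299 it overlapped at 178, 126 and 118 CPM with shPPP2R2A-1, against 293, 206 and 127 CPM with shcon. Its difference of 3.17 was called in 3 of the 12 fits without 1 library and not without the 3 that stood apart (2.06, adjusted p = 0.0849, edgeR) or with H1299 blocked by repeat (adjusted p = 0.0680, edgeR). FGF5, a fibroblast growth factor, was near 0 in A549, at a mean of 1.003 CPM with shPPP2R2A-1 and 0.0237 CPM with shcon, and abundant in H1299, at 577 CPM with shPPP2R2A-1 and 339 CPM with shcon. BHLHE40, a transcriptional repressor of the circadian system, was called in H1299 alone, with a mean of 60.8 CPM under shPPP2R2A-1 and 30.7 CPM under shcon, and its difference of -1.57 was called in 3 of the 12 fits without 1 library and not with H1299 blocked by repeat (adjusted p = 0.0629, edgeR).

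The counts in the gene lists that follow stand beside the shares called over all genes tested. These were 13.7% in A549, 2.74% in H1299 and 0.772% for the difference, and a list count near them is not particular to the list. Of 39 mitosis genes, most fell with shPPP2R2A-1 in A549, and all 39 members of the list had a difference below 0, while none of the differences was called. In A549, 27 of 39 fell and 0 rose, with a list median of -1.09 on the log2 scale. In H1299, 2 fell, FOXM1 (-1.41), a transcription factor of late cell cycle genes, and NUF2 (-1.89), a kinetochore protein, with a list median of -0.36 and 37 of 39 below 0. The H1299 count of fallen genes ran from 0 to 16 over the ways of analysis, with 4 in DESeq2, 12 in limma-voom and 16 without the 3 libraries that stood apart, and 7 genes had an unadjusted p under 0.05. The median difference was -0.74, against -0.02 over all genes tested, of which 48.8% were above 0. At an unadjusted p under 0.05, 11 of the 39 differences were lower, and DESeq2 called 3 and limma-voom with sample weights 5. Without the 3 libraries that stood apart edgeR called 4 lower, at a median of -0.49.

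PLK1 had 82.7, 62.8 and 40.7 CPM in A549 shPPP2R2A-1 cells, against 219, 105 and 156 CPM in A549 shcon cells. In H1299 it had 178, 163 and 199 CPM with shPPP2R2A-1, against 247, 205 and 174 CPM with shcon, and these groups overlapped. The difference was -1.16 (SE 0.39, adjusted p = 0.187, edgeR). ESPL1 had 47.6, 39.3 and 27.7 CPM in A549 shPPP2R2A-1 cells, against 101, 68.4 and 81.6 CPM in A549 shcon cells, with a difference of -1.02 (SE 0.29, adjusted p = 0.125, edgeR). MASTL, the kinase that keeps the B55 form of PP2A inactive in mitosis, had a log2 change of -0.79 in A549 (SE 0.23, adjusted p = 0.0345, edgeR) and 0.36 in H1299 (SE 0.23, adjusted p = 0.441, edgeR), and a difference of -1.15 (SE 0.32, adjusted p = 0.124, edgeR). KIFC1, a minus-end kinesin, had -0.92 (SE 0.27, adjusted p = 0.134, edgeR).

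In bulk RNA, fewer cells in mitosis and less RNA per cell cannot be told apart. One A549 library stood lowest. Relative to the mean of the shcon libraries of its line, the list median was -0.77, -0.75 and -1.91 in A549 shPPP2R2A-1 replicates 1 to 3 and 0.29, -0.21 and -0.02 in the A549 shcon replicates. It was -0.44, -0.37 and -0.25 in the H1299 shPPP2R2A-1 replicates and -0.01, -0.01 and 0.05 in the H1299 shcon replicates. Without A549 shPPP2R2A-1 replicate 3 the median difference was -0.39, and without A549 shcon replicate 1 it was -0.48, with 15 of the 39 genes falling in A549. Over all ways of analysis it ran from -0.95 to -0.39.

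**Figure D4:**
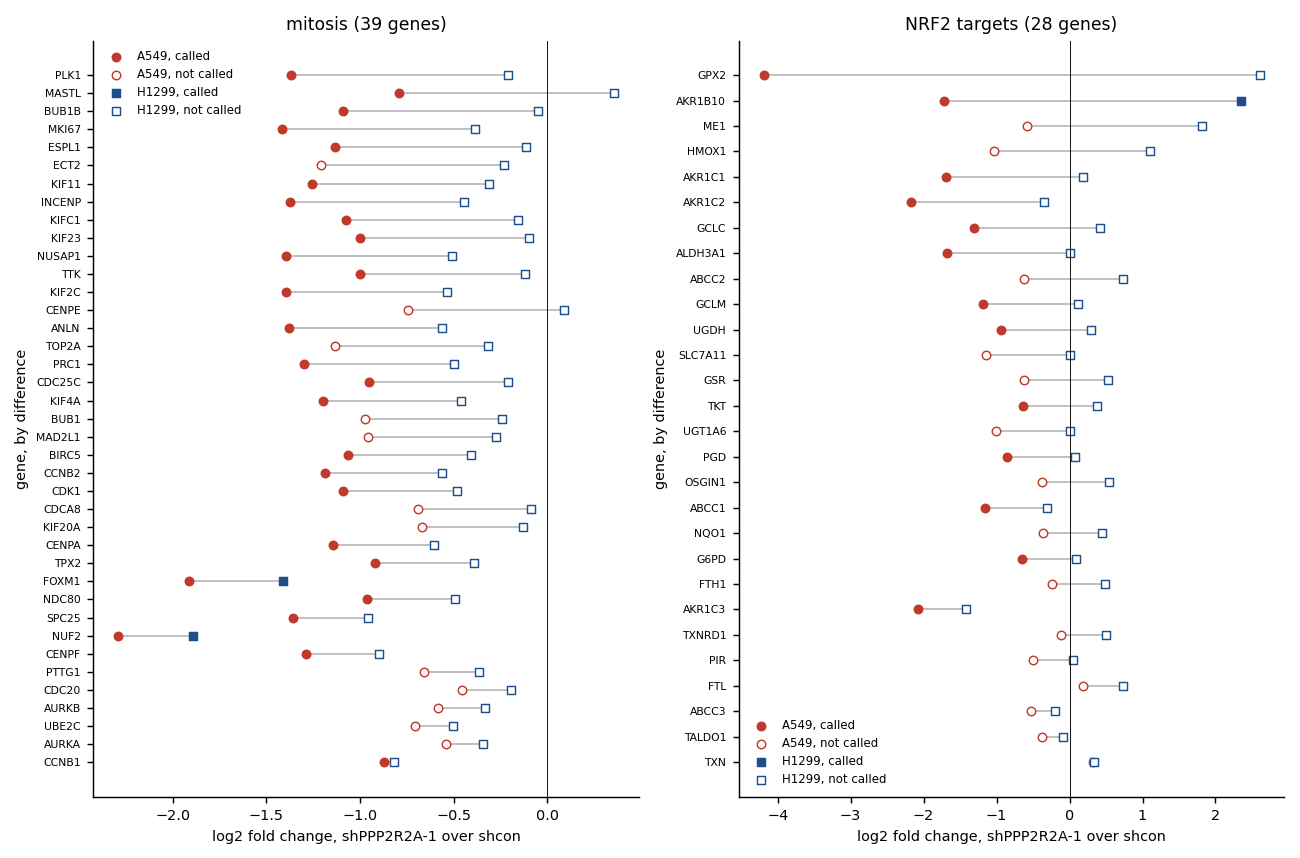
Log2 fold change of shPPP2R2A-1 over shcon (x axis) for each mitosis gene (left) and NRF2 target (right), with A549 as red circles and H1299 as blue squares, filled where the change was called, and a gray line joining the lines of 1 gene. Of the mitosis genes, 27 are filled in A549 and 2 in H1299. Of the NRF2 targets, 13 are filled in A549 and 1 in H1299.

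Of 47 replication genes and E2F targets, 29 fell and 0 rose in A549, while in H1299 CDC25A rose and CCNE1 and MCM3 fell. The median difference was -0.61, 2 members (CCNE1 and PCNA) were above 0, and 22 had an unadjusted p under 0.05. The 2 called differences had opposite signs. CCNE1, cyclin E1, which starts S phase with CDK2, had 33.9, 28.7 and 42.0 CPM in A549 shPPP2R2A-1 cells, against 37.1, 24.3 and 27.9 CPM in A549 shcon cells, and 7.35, 7.74 and 7.72 CPM in H1299 shPPP2R2A-1 cells, against 21.4, 19.4 and 23.8 CPM in H1299 shcon cells. It overlapped in A549 and fell in H1299, with a difference of 1.73 (SE 0.28, adjusted p = 0.0177, edgeR), called in 9 of the 12 fits without 1 library. POLE, the catalytic subunit of DNA polymerase epsilon, had 77.3, 65.9 and 63.9 CPM in A549 shPPP2R2A-1 cells, against 131, 120 and 121 CPM in A549 shcon cells, and 129, 122 and 134 CPM in H1299 shPPP2R2A-1 cells, against 104, 112 and 108 CPM in H1299 shcon cells. Its difference was -1.10 (SE 0.20, adjusted p = 0.0241, edgeR), called in 5 of the 12 fits.

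MCM5, a subunit of the replicative helicase, had 83.5, 72.7 and 56.5 CPM in A549 shPPP2R2A-1 cells, against 175, 169 and 152 CPM in A549 shcon cells, and its difference of -0.95 did not pass the test (SE 0.24, adjusted p = 0.0947, edgeR). Of 37 DNA repair and checkpoint genes, 16 fell in A549, among them CLSPN, an adaptor for CHK1 activation, with -1.49. In H1299, 0 were called by edgeR or DESeq2, 5 of 37 had an unadjusted p under 0.05 (against 3388 of 18125 over all genes), and limma-voom with sample weights called 2 higher and 5 lower. The median difference of the repair list was -0.70 with 5 members above 0. Of its differences edgeR called 0, DESeq2 called 1 lower and limma-voom called 8 lower, and 13 had an unadjusted p under 0.05. The A549 counts of both lists moved with single libraries. Without A549 shcon replicate 1, A549 shcon replicate 3 and A549 shPPP2R2A-1 replicate 3 in turn, 12, 15 and 15 replication genes and 6, 7 and 7 repair genes fell in A549.

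NRF2 targets stood lower in A549 minus H1299 in all 28 genes tested. In A549, 13 fell and 0 rose, with a median of -0.76. In H1299 only AKR1B10 was called, upward, and the median was 0.31. The median difference was -1.01, against -0.02 over all genes tested, and over the 21 members that could be measured in both lines it was -0.92, again with 0 above 0. AKR1B10 was the only called difference, 16 of 28 had an unadjusted p under 0.05, and DESeq2 and limma-voom called 9 and 10 lower. Without the 3 libraries that stood apart 5 were called lower at a median of -0.92, and over all ways of analysis the median ran from -1.17 to -0.89.

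GCLC, the catalytic subunit of the first enzyme of glutathione synthesis, had 150, 122 and 59.2 CPM in A549 shPPP2R2A-1 cells, against 269, 209 and 343 CPM in A549 shcon cells. In H1299 its groups met at the same level, with 84.2, 64.8 and 60.2 CPM under shPPP2R2A-1, against 46.8, 50.3 and 60.2 CPM under shcon, and the difference was -1.72 (SE 0.40, adjusted p = 0.0667, edgeR). ABCC2, an exporter of conjugates, had 450, 460 and 348 CPM in A549 shPPP2R2A-1 cells, against 525, 706 and 702 CPM in A549 shcon cells, and 27.8, 22.4 and 24.1 CPM in H1299 shPPP2R2A-1 cells, against 10.4, 17.9 and 16.4 CPM in H1299 shcon cells. The groups did not overlap in either line, in opposite order, with a difference of -1.35 (SE 0.30, adjusted p = 0.0542, edgeR). AKR1C1, an aldo-keto reductase close in sequence to AKR1C2 and AKR1C3, had 102, 95.7 and 60.7 CPM in A549 shPPP2R2A-1 cells, against 202, 303 and 331 CPM in A549 shcon cells, and at most 0.352 CPM in any H1299 library. Its difference was -1.88 (SE 0.43, adjusted p = 0.0604, edgeR). By library, the list median was -0.50, -0.76 and -1.19 in A549 shPPP2R2A-1 replicates, -0.19, 0.17 and 0.10 in A549 shcon replicates, 0.44, 0.25 and 0.03 in H1299 shPPP2R2A-1 replicates and 0.00, 0.03 and -0.02 in H1299 shcon replicates.

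**Figure D5:**
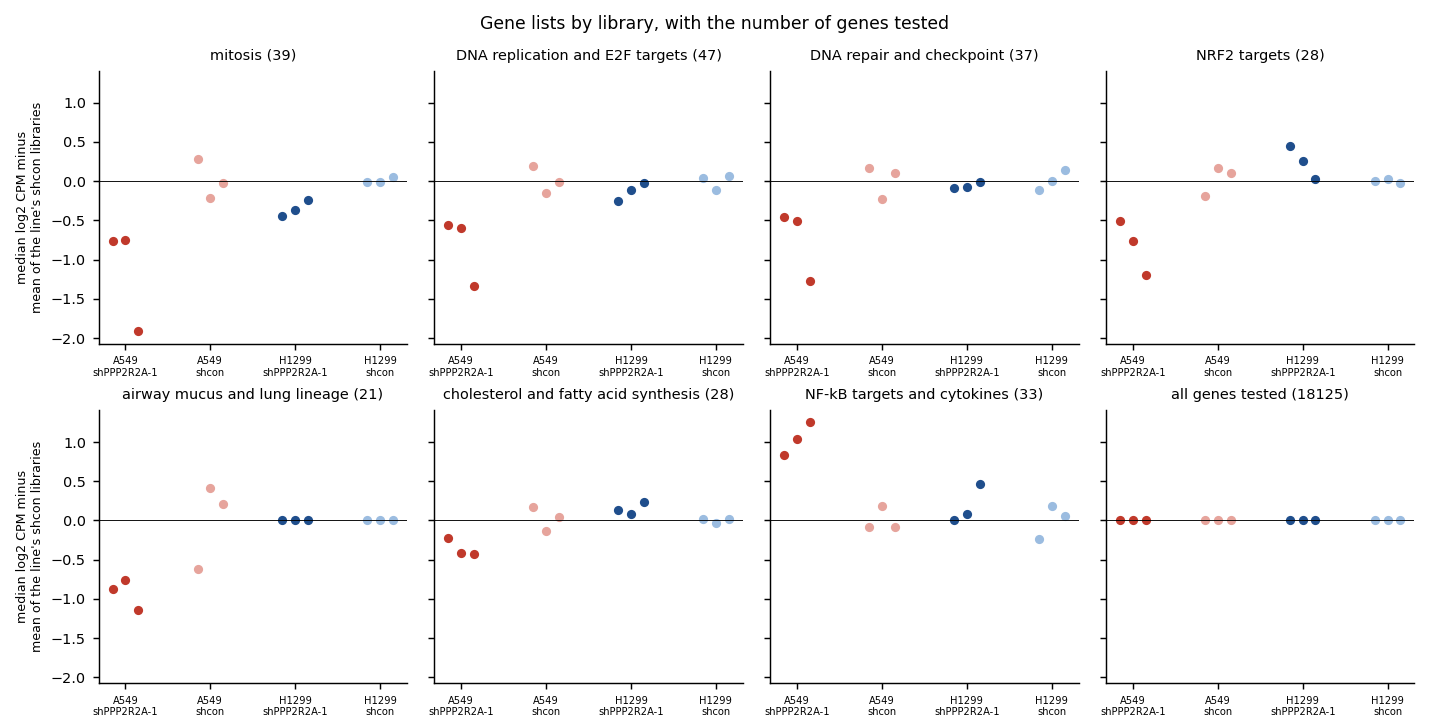
Median over a list of log2 CPM minus the mean of the shcon libraries of the same line (y axis), 1 point for each library, for 7 lists and for all genes tested, with the number of genes in each title. The A549 shPPP2R2A-1 libraries lie lowest for mitosis (-1.91 to -0.75) and NRF2 targets (-1.19 to -0.50) and highest for NF-kB targets (0.83 to 1.25), and the H1299 libraries stay within -0.44 and 0.46 in the same 3 panels.

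Cholesterol and fatty acid synthesis genes had a median difference of -0.54 with 3 of 28 above 0. In A549, 6 fell and 0 rose, among them PMVK, SREBF1, SREBF2, SCD and LSS. In H1299, INSIG1, ELOVL6 and HMGCS1 rose and PMVK fell. INSIG1, which retains the SREBP precursors in the endoplasmic reticulum, had 69.4, 72.8 and 51.6 CPM in A549 shPPP2R2A-1 cells, against 83.6, 71.1 and 78.6 CPM in A549 shcon cells, and 210, 153 and 208 CPM in H1299 shPPP2R2A-1 cells, against 110, 92.2 and 123 CPM in H1299 shcon cells. Its difference of -1.08 did not pass the test (SE 0.26, adjusted p = 0.0744, edgeR), nor did that of SREBF2, the factor that drives cholesterol synthesis genes, at -0.91 (SE 0.23, adjusted p = 0.0857, edgeR). Of the list edgeR called 0 differences, DESeq2 called 2 lower and limma-voom 8 lower, and 9 had an unadjusted p under 0.05. The H1299 calls did not hold without single libraries, with 0 genes rising without H1299 shPPP2R2A-1 replicate 1 or 3 or H1299 shcon replicate 2, and 1 without H1299 shcon replicate 1 or A549 shcon replicate 3.

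Of 30 glycolysis and hypoxia genes, 1 had a called difference. PFKFB4, which sets the level of the glycolytic activator fructose-2,6-bisphosphate, had 45.8, 59.7 and 220 CPM in A549 shPPP2R2A-1 cells, against 9.55, 10.3 and 5.81 CPM in A549 shcon cells. Levels in H1299 overlapped at 8.30, 8.13 and 8.61 CPM with shPPP2R2A-1, against 8.17, 7.19 and 7.75 CPM with shcon, and the difference was 3.55 (SE 0.63, adjusted p = 0.0225, edgeR), called in 7 of the 12 fits without 1 library and just missed with H1299 blocked by repeat (adjusted p = 0.05002, edgeR). SLC2A1, the glucose transporter GLUT1, had 92.8, 66.7 and 60.2 CPM in A549 shPPP2R2A-1 cells, against 190, 129 and 169 CPM in A549 shcon cells, and its difference of -1.29 was not called (SE 0.30, adjusted p = 0.0667, edgeR). In A549, 7 of the 30 rose and 1 fell, and in H1299 0 were called by edgeR, 1 by DESeq2 and 3 by limma-voom, with 3 of 30 at an unadjusted p under 0.05, against 3388 of 18125 over all genes. The median difference of the list was 0.12.

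Of 33 genes of the integrated stress and unfolded protein responses, 5 rose and 8 fell in A549 and 1, SLC3A2, rose in H1299, and the median difference was -0.33. Without A549 shcon replicate 3 the A549 counts were 1 and 3, without A549 shPPP2R2A-1 replicate 3 they were 3 and 3, without A549 shPPP2R2A-1 replicate 2 there were 3 risen, and without A549 shcon replicate 1 there were 4 fallen, and 5 without H1299 shPPP2R2A-1 replicate 2 or 3. The smallest adjusted p in that list was that of HYOU1, a chaperone of the endoplasmic reticulum, at -0.86 (SE 0.22, adjusted p = 0.0859, edgeR). Of 30 MYC and ribosome biogenesis genes, RRS1 rose and PES1 and CDK4 fell in A549, MYC rose and CDK4 fell in H1299, and the median difference was -0.11. Calls made up 10.0% of this list in A549 and 6.67% in H1299, against 13.7% and 2.74% of all genes tested. For MYC itself the difference was -0.57 (SE 0.29, adjusted p = 0.378, edgeR). In these 2 lists edgeR called 0 differences, with 10 and 0 genes at an unadjusted p under 0.05. DESeq2 called 2 in the first and 0 in the second, and limma-voom called 6 and 2.

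Of 33 NF-kB targets and cytokines, 14 rose and 0 fell in A549, where 7 had a change below 0 that did not pass the test. Those that rose included SOD2, the mitochondrial superoxide dismutase (1.28), IL6 (4.17), the inhibitor TNFAIP3 (1.96) and CCL2 (2.40), a chemokine for monocytes. In H1299, 1 was called, SOD2 (0.65). The median difference was 0.63 with 25 of 33 above 0, and it ran from 0.33 to 0.92 over the ways of analysis, the lowest without A549 shcon replicate 1. Of the differences edgeR called 0, DESeq2 called 5 higher and limma-voom 7 higher, and 9 had an unadjusted p under 0.05. IL11, a cytokine that signals through gp130, had 42.3, 73.0 and 158 CPM in A549 shPPP2R2A-1 cells, against 15, 4.56 and 3.64 CPM in A549 shcon cells, and 1.06, 1.94 and 3.32 CPM in H1299 shPPP2R2A-1 cells, against 0.694, 3.36 and 5.70 CPM in H1299 shcon cells. Its difference of 4.18 did not pass the test (SE 0.99, adjusted p = 0.0688, edgeR). CCL2 had 1373, 1805 and 2820 counts in A549 shPPP2R2A-1 cells, against 581, 396 and 370 counts in A549 shcon cells, and 0 counts in all 6 H1299 libraries, so no difference between the lines can be given for it.

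MHC class I presentation genes rose in A549 in 7 of 19, among them TAP1 and TAP2, which carry peptides into the endoplasmic reticulum, B2M, the light chain of class I molecules, the proteasome subunit PSMB9 and the factor IRF1. The count was 4 without A549 shcon replicate 3. In H1299 edgeR and DESeq2 called 0, limma-voom called 4 higher and 1 lower, and 3 had an unadjusted p under 0.05. TAP1 had 73.1, 85.1 and 110 CPM in A549 shPPP2R2A-1 cells, against 46.6, 45.7 and 42.0 CPM in A549 shcon cells, and 39.7, 42.1 and 46.4 CPM in H1299 shPPP2R2A-1 cells, against 42.9, 41.1 and 35.2 CPM in H1299 shcon cells. Its groups overlapped in H1299 and not in A549, and the difference of 0.89 was not called (SE 0.25, adjusted p = 0.114, edgeR). The median difference of the list was 0.36, from 0.10 to 0.57 over the ways of analysis. Of its differences edgeR called 0, DESeq2 and limma-voom 2 higher each, and 7 had an unadjusted p under 0.05.

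Of 38 interferon-stimulated genes, 2 rose (UBE2L6 and TRIM22) and 5 fell (IFITM2, IFITM3, IRF7, OAS3 and PLSCR1) in A549, and the fall rested on single libraries: 0 fell without A549 shPPP2R2A-1 replicate 3, 1 without its replicate 2, 2 without its replicate 1 or A549 shcon replicate 3, and 3 without A549 shcon replicate 1 or 2, H1299 shPPP2R2A-1 replicate 2 or 3, or H1299 shcon replicate 2. In H1299 edgeR called 0, DESeq2 4 lower and limma-voom 1 higher and 10 lower, and 10 of 38 had an unadjusted p under 0.05, against 3388 of 18125 over all genes. The H1299 median was -0.25 with 27 of 38 below 0, and it ran from -0.47 to -0.15 over the ways of analysis. The median difference was 0.10, with 22 of 38 above 0. Of these differences edgeR called 0, DESeq2 2 higher and limma-voom 1 higher, and 9 had an unadjusted p under 0.05. Of 21 genes for cytosolic DNA and RNA sensing, RNASEH2A and IFNAR1 fell in A549, IFI16 rose and IFNAR1 fell in H1299, and the median difference was -0.07. IFI16 had at most 0.346 CPM in any H1299 library, so its H1299 call rests on few counts. Calls made up 9.52% of this list in each line, against 13.7% of all genes tested in A549 and 2.74% in H1299. Here edgeR called 0 differences, DESeq2 and limma-voom 2 higher each, and 4 had an unadjusted p under 0.05.

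Of 10 genes that the study followed by other assays and that had counts in both lines, edgeR and DESeq2 called 0 differences, and 0 had an unadjusted p under 0.05. The difference was -0.07 for CGAS (listed as MB21D1), the DNA sensor (SE 0.28, adjusted p = 0.967, edgeR), and 0.49 for STING1 (listed as TMEM173), its adaptor (SE 0.58, adjusted p = 0.731, edgeR). It was -0.31 for TBK1 (SE 0.24), 0.20 for IRF3 (SE 0.32), 0.11 for GSK3B (SE 0.30), 1.03 for IFIT2 (SE 0.53), -0.35 for MX1 (SE 1.87) and -4.12 for CCL5 (SE 2.01), where MX1 had at most 1 count and CCL5 at most 8 counts in any H1299 library. CXCL10, IFNA1 and IFNB1 had at most 4 counts in any library and were not tested. CD274, which encodes PD-L1, had 3.09, 4.70 and 6.79 CPM in A549 shPPP2R2A-1 cells, against 1.48, 2.17 and 1.74 CPM in A549 shcon cells, and 22.1, 22.9 and 28.8 CPM in H1299 shPPP2R2A-1 cells, against 12.4, 13 and 20.4 CPM in H1299 shcon cells. Both lines had higher levels with shPPP2R2A-1 in all 3 libraries, the A549 change alone was called, and the difference was 0.74 (SE 0.41, adjusted p = 0.413, edgeR).

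PDCD1LG2, which encodes PD-L2, was the one called difference among 19 checkpoint ligands. It had 1.61, 2.16 and 4.78 CPM in A549 shPPP2R2A-1 cells, against 0.0643, 0.173 and 0 CPM in A549 shcon cells, and 6.85, 3.71 and 5.30 CPM in H1299 shPPP2R2A-1 cells, against 1.92, 2.73 and 3.21 CPM in H1299 shcon cells. The groups did not overlap in either line. The difference of 4.16 (SE 0.86, adjusted p = 0.0393, edgeR) rests on A549 shcon libraries near 0 and was called in 2 of the 12 fits without 1 library and not with H1299 blocked by repeat (adjusted p = 0.0714, edgeR). In the list, 5 genes rose in A549 (PDCD1LG2, CD274, MICA, MICB and CD47) and ULBP1 fell, and PVR, MICA and MICB rose and RAET1E fell in H1299, with a median difference of 0.43. The A549 count was 2 without A549 shcon replicate 3 or A549 shPPP2R2A-1 replicate 2, and 3 without A549 shcon replicate 2 or A549 shPPP2R2A-1 replicate 3. The H1299 count was 0 without H1299 shcon replicate 2 or H1299 shPPP2R2A-1 replicate 1, and 1 without H1299 shcon replicate 1 or H1299 shPPP2R2A-1 replicate 3.

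Airway mucus and lung lineage genes fell in A549 in 10 of 21, among them the mucins MUC5B, MUC5AC and MUC2, the secretory cell factor SPDEF and the endodermal factors FOXA3, HNF4A and HNF4G. Many of them were at or near 0 in H1299, where AGR2 had 0 CPM in 5 of 6 libraries. Of the 21, 9 could be measured in both lines, with a median difference of -0.63 against -1.38 over all 21. In H1299 edgeR called 0, DESeq2 and limma-voom 1 higher and 1 lower each, and 5 had an unadjusted p under 0.05. HNF4G had 4.22, 4.17 and 1.92 CPM in A549 shPPP2R2A-1 cells, against 6.30, 6.54 and 11.4 CPM in A549 shcon cells, and 3.52, 1.88 and 2.38 CPM in H1299 shPPP2R2A-1 cells, against 0.817, 1.499 and 1.55 CPM in H1299 shcon cells. Its difference was -2.24 (SE 0.55, adjusted p = 0.078, edgeR). Of the list's differences edgeR called 0, DESeq2 3 lower and limma-voom 2 lower, and 3 had an unadjusted p under 0.05. Without A549 shcon replicate 3, A549 shPPP2R2A-1 replicate 1 and A549 shPPP2R2A-1 replicate 3 in turn, 4, 6 and 5 fell in A549, and without A549 shcon replicate 2 the median difference was -0.58.

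Genes of the epithelial and mesenchymal states, 27 tested, had 2 called differences, SPARC and ACTA2. ACTA2, smooth muscle actin, had 39.6, 40.2 and 51.9 CPM in A549 shPPP2R2A-1 cells, against 15.2, 19.6 and 13.5 CPM in A549 shcon cells, and 2.53, 3.40 and 2.63 CPM in H1299 shPPP2R2A-1 cells, against 3.96, 4.17 and 3.12 CPM in H1299 shcon cells. Its groups overlapped in H1299, and the difference was 1.84 (SE 0.30, adjusted p = 0.0177, edgeR), called in 8 of the 12 fits without 1 library. In A549, 7 of the list rose and 3 fell, and without A549 shcon replicate 3 the counts were 4 and 1, with 1 fallen also without A549 shcon replicate 2 or any single A549 shPPP2R2A-1 library. In H1299 edgeR called 0, DESeq2 2 higher and 1 lower, and limma-voom 5 higher and 2 lower, with 4 at an unadjusted p under 0.05. The list median of the difference was -0.07 and changed sign between ways of analysis, from -0.16 to 0.31.

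The fibroblast markers did not all move alike in A549. Of the 7 tested genes of their list, 2 had a change below 0 in A549, with PDGFRA at -0.55 (not called). COL1A1, PDGFRB and FAP rose, and the summed level of the 5 fibroblast markers checked was 17.6 to 38.4 CPM in A549 shPPP2R2A-1 cells and 8.46 to 11.3 in A549 shcon cells, against 0.86 to 1.11 in H1299 shPPP2R2A-1 cells and 1.08 to 1.94 in H1299 shcon cells. Their part in the results was not tested. Of the 5 summed markers, COL1A1 and LUM made up nearly all of the sum, while DCN and PDGFRA had at most 0.265 CPM in any A549 library. COL1A2 reached at most 1.02 CPM in A549 shcon cells and at most 0.0244 CPM in A549 shPPP2R2A-1 cells. Of the 7 tested genes of the fibroblast list edgeR called 0 differences, DESeq2 1 higher and limma-voom 2 higher, and 2 had an unadjusted p under 0.05. The count of 3 risen in A549 was 1 without A549 shPPP2R2A-1 replicate 3 or A549 shcon replicate 3 and 5 without H1299 shPPP2R2A-1 replicate 1. In the leukocyte list (3 tested) and the endothelial list (2 tested) edgeR, DESeq2 and limma-voom called 0 differences, with 0 and 1 at an unadjusted p under 0.05, and CDH5 fell in A549.

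Of 25 ERK feedback and EGF-family ligand genes, TMEM158 and HBEGF had called differences (8.0%, against 0.772% over all genes), 5 rose in A549 (with SPRY2, DUSP5 and CCND1) and ETV1 fell, and the median difference was 0.13. Of 29 TGF-beta ligands and targets, 9 rose in A549 and TGFB2 and TGFBI rose in both lines, with a median difference of 0.19, 8 differences at an unadjusted p under 0.05, 0 called by edgeR, 3 higher by DESeq2 and 6 higher and 1 lower by limma-voom. Without A549 shcon replicate 3 or A549 shPPP2R2A-1 replicate 3, 3 rose in A549. Of 27 YAP-TEAD targets, 7 rose and 1 fell in A549 and CTGF, TGFB2 and LATS2 rose in H1299, with a median of 0.07, 3 differences at an unadjusted p under 0.05, 0 called by edgeR and 1 higher by DESeq2 and by limma-voom. The H1299 count of that list was 0 without H1299 shPPP2R2A-1 replicate 1 or 3 or H1299 shcon replicate 2 or 3, and 1 without H1299 shPPP2R2A-1 replicate 2, H1299 shcon replicate 1, A549 shPPP2R2A-1 replicate 2 or A549 shcon replicate 3.

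Of 34 integrin, laminin and protease genes, 6 rose and 3 fell in A549, and CPA4, ADAM12 and ADAMTS1 rose and ITGB4 fell in H1299. Without A549 shPPP2R2A-1 replicate 3 or A549 shcon replicate 3, 0 fell in A549, and in H1299 0 rose without H1299 shPPP2R2A-1 replicate 1 or H1299 shcon replicate 1 and 1 without H1299 shcon replicate 2 or 3. The median difference was 0.24, 10 differences had an unadjusted p under 0.05, and edgeR called 0, DESeq2 2 higher and limma-voom 5 higher and 2 lower. Of 22 AP-1 and immediate early genes, 5 rose in A549 and JUN and MYC rose in H1299. Their median difference was -0.36 with all libraries and 0.12 without the 3 that stood apart, so its direction turned, and it was 0.37 without A549 shcon replicate 2 alone. The A549 count was 3 without A549 shPPP2R2A-1 replicate 3 or A549 shcon replicate 3. EGR1, an immediate early factor, had 61.0, 187 and 151 CPM in A549 shPPP2R2A-1 cells, against 103, 365 and 237 CPM in A549 shcon cells, and 153, 160 and 139 CPM in H1299 shPPP2R2A-1 cells, against 33.5, 92.3 and 35.7 CPM in H1299 shcon cells. Its difference was -2.31 (SE 0.67, adjusted p = 0.128, edgeR). Of the AP-1 list edgeR called 0 differences, DESeq2 1 higher and 2 lower, and limma-voom 1 higher and 1 lower, and 6 had an unadjusted p under 0.05.

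Among 28 PP2A subunits and regulators no difference was called. In A549, PPME1, which demethylates the catalytic subunit, rose, and PPP2R2A, KIAA1524 (the inhibitor CIP2A), PPP2R4, ANP32A and PPP2R5C fell. In H1299, PPP2R2A, PPP2R2C, ANP32A and PPP2R5C fell. Without A549 shPPP2R2A-1 replicate 3, A549 shcon replicate 1 and A549 shcon replicate 3 in turn, 2, 2 and 1 fell in A549. In H1299, 1 fell without H1299 shPPP2R2A-1 replicate 1 or 3 and 2 without H1299 shcon replicate 2 or 3. PPP2R2C, the gamma member of the B55 family, had 45.6, 33.4 and 29.5 CPM in A549 shPPP2R2A-1 cells, against 54.5, 37.96 and 49.4 CPM in A549 shcon cells, but under 1 CPM in all H1299 libraries, and its difference was 1.51 (SE 0.47, adjusted p = 0.148, edgeR). The list median of the difference was -0.23. DESeq2 called 1 higher, limma-voom 1 higher and 2 lower, and 5 had an unadjusted p under 0.05. CDKN1A, the cell cycle inhibitor p21, had 436, 382 and 584 CPM in A549 shPPP2R2A-1 cells, against 149, 108 and 143 CPM in A549 shcon cells, and 91.2, 48.2 and 52.4 CPM in H1299 shPPP2R2A-1 cells, against 58.5, 43.1 and 37.9 CPM in H1299 shcon cells. It rose in A549 and its difference of 1.35 was not called (SE 0.36, adjusted p = 0.108, edgeR).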

How the data were processed

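RNA of A549 and H1299 cells was sequenced from stranded poly(A) mRNA libraries (paired reads). The submitters' processing notes name, with no role or order, the build GRCh37/hg19 and Cufflinks 2.2.1, HTSeq 0.11.2, DESeq2, Bowtie2, STAR 2.7.3a, FastQC 0.11.8 and cutadapt 2.5. The authors deposited 1 table with raw counts for each gene and library, which were used here, and a signal equal to the counts divided by 1 size factor per library, which was not used. The table lists 57773 genes.

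Counts were fitted with edgeR 4.0.16 (quasi-likelihood, TMM, filterByExpr, robust) in R 4.3.3, with 1 mean for each of 4 groups, 12 libraries and no covariate. Genes past a Benjamini-Hochberg adjusted p of 0.05 over the 18125 tested were called. CPM used TMM-scaled library sizes, and the CPM of markers did not. Standard errors came from the log2 change and its F statistic. Alternatives used DESeq2 1.42.0, limma 3.58.1 (voom with sample weights), other filters and scaling, replicate blocks, all 18 libraries, leaving out each library, and 2 chosen after seeing the data: leaving out the 3 libraries that stood apart, and a block in H1299 alone. Same-numbered shPPP2R2A-1 and shcon libraries correlated in their deviations from the group means at 0.199, 0.212 and 0.132 in H1299 and at 0.199, -0.01 and -0.32 in A549. Replicates of 1 group differed by more than counting noise.

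On simulated counts for the response difference, with 200 of 18125 genes changed, 16% were recovered at a true log2 difference of 1 and 83% at 2, and 6.6% of calls were false. The changed genes were drawn from those with a mean of at least 100 counts. Simulated libraries varied independently, without the shared axis seen in the real ones. These shares therefore do not carry over to the reported calls.

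The genes named are PPP2R2A; those measured in both lines and called in all 12 fits without 1 library; those called in opposite directions; up to 4 of each list with the smallest adjusted p; and the genes the study measured. The comparison and the 25 gene lists (710 genes, 709 in the table, 654 tested) were chosen with earlier results of these data known. The results of 1 list and of some single genes are not reported here. Promoter sequences and motif shares are from RefSeq windows on GRCh38.p14, matched by symbol.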

Additional observations from a re-analysis of the deposited data

Results flagged for a closer look

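The response to shPPP2R2A-1 differed between A549 and H1299 by a test of the difference itself in 140 genes, and this is what brought the following genes up. The log2 differences, A549 minus H1299, of those called again without any 1 library were 4.07 for TMEM158, 3.85 for RP11-61A14.1, 3.31 for SCG2, 2.91 for SPARC, 2.35 for HMGA2, 2.30 for HBEGF, 2.2 for RPL13AP20, 2.16 for GPR176, 2.15 for RP11-166D19.1, 1.92 for KDELR3, 1.49 for APOL2, -4.06 for AKR1B10 and -3.15 for GK. Of these, TMEM158 and AKR1B10 were not called without the 3 libraries that stood apart, with adjusted p values of 0.0507 and 0.0582 from edgeR.

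Genes called in opposite directions in the lines had differences of 4.46 for P2RX6, 1.67 for IL4R, 5.65 for TMEM140, -1.92 for ATP9B, -2.27 for GPR63, -1.60 for FZD5 and -1.91 for CDS1. The value of TMEM140 is a fitted one against 3 libraries at 0 counts and is no bound. Members of gene lists had 1.73 for CCNE1, -1.10 for POLE, 3.55 for PFKFB4, 1.84 for ACTA2 and 4.16 for PDCD1LG2, and each of these 5 lost its call without at least 1 single library.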

How the results depend on the processing

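The 6 counts of called genes moved with the test more than with the scaling, and 0 named genes reversed their called direction. List medians of the difference changed sign between ways of analysis for AP-1 (-0.58 to 0.37), epithelial and mesenchymal genes (-0.16 to 0.31), interferon-stimulated genes (-0.04 to 0.37), ERK feedback (-0.04 to 0.23), TGF-beta (-0.10 to 0.35), YAP-TEAD (-0.02 to 0.30), DNA and RNA sensing (-0.16 to 0.01) and leukocyte markers (-2.10 to 0.72). The response difference had 108 higher and 32 lower genes as reported, 544 and 242 with DESeq2, 833 and 524 with limma-voom with sample weights, and 586 and 347 with no filter on low counts. With a mean of at least 100 counts it had 20 lower, with the spread shared over all 18 libraries 54 lower, and with DESeq2's size factors in edgeR 112 higher and 30 lower. All 140 genes were among those DESeq2 called.

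With a replicate block within each line the difference had 23 higher and 4 lower genes, with a block common to both lines 38 and 12, and with a block within H1299 only 77 and 19. In H1299 the block within each line gave 71 higher and 119 lower, and the common block 114 and 164. With the block within H1299 only, the differences of TMEM140, PFKFB4, PDCD1LG2, MT2A and BHLHE40 were no longer called, and it changed no other called difference of a named gene. In A549, same-numbered shPPP2R2A-1 and shcon libraries correlated in their deviations from the group means at 0.199, -0.01 and -0.32. The labels do not say whether the numbers pair the A549 libraries, and these values cannot decide it.

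In A549, 1339 were higher and 1141 lower. Fitted alone that line gave 818 and 539, limma-voom gave 1825 lower and no filter 1743 lower. In H1299, 223 were higher and 274 lower, with 699 and 802 from DESeq2, 2199 and 2058 from limma-voom, 534 and 688 with no filter, and 497 lower when fitted alone. Without the 3 libraries that stood apart the counts were 229 and 143 for the difference, 1638 lower in A549, and 715 and 1023 in H1299.

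Leaving out 1 library at a time gave 17 to 168 higher and 3 to 74 lower for the difference, 694 to 1544 higher and 516 to 1366 lower in A549, and 14 to 312 higher and 43 to 423 lower in H1299. Without A549 shcon replicate 3 the A549 counts were 694 and 516, and without A549 shPPP2R2A-1 replicate 3 they were 713 and 545. In H1299 the lowest counts, 14 and 43, came without H1299 shPPP2R2A-1 replicate 1. A gene that was not called is not shown to respond alike. In the simulation few differences of 1 on the log2 scale were recovered. Its libraries varied independently, so that share does not carry over to the reported calls.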
